A study of Mus musculus with 9 samples.

Results

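The genes described here encode the machinery that presents peptides on MHC class II molecules, measured in endothelial cells sorted from mouse bone marrow. They are 7 genes of the 52183 in the table, chosen by symbol: the class II chains H2-Aa, H2-Ab1 and H2-Eb1, the peptide exchange factor chains H2-DMa and H2-DMb1, the invariant chain Cd74, and the class II transactivator Ciita. Of the 7, 6 reached a mean of at least 1 FPKM (fragments scaled by gene length and library depth) over the libraries and were tested. Ciita did not and is given by its values. The 9 libraries form 3 groups of 3. Young controls were mice of 3 months and aged controls mice of 18 months, and the third group came from mice of 18 months whose labelled genotype is Aged Thbs1 knockout. Thbs1 is the gene of thrombospondin-1, a secreted matrix protein. The labels give no strain, no sex, no description of the Thbs1 allele and no statement on pooling of mice. All mice received an antibody to VE-cadherin, a junction protein of endothelium, in the circulation before they were killed, so the cells of every group were selected by the same vessel label. The labels do not say that the libraries are separate mice, so a p-value here refers to the spread among libraries, which may be technical.

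Class II molecules are heterodimers of an alpha and a beta chain. They are assembled in the endoplasmic reticulum with the invariant chain, which fills the groove and carries the complex to endosomes. There, lysosomal proteases trim the invariant chain, and H2-DM exchanges its last fragment for a peptide, which the class II molecule then shows to CD4+ T cells. Ciita does not bind DNA by itself and acts on the proteins bound to the X and Y boxes of class II promoters. Its transcription is induced by interferon gamma, with Irf1 taking part, in cells outside the professional antigen-presenting lineages, endothelium among them.

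Several features of the libraries bear on these genes. Depth recovered from the FPKM values ran from 22160000 to 30410000 fragments per library, and the 7 genes were represented by about 43 to 4391 fragments each. Depth differed by group, with at most 24580000 fragments in the controls and at least 27230000 with the knockout label. Thbs1, the targeted gene, went against that label and was highest under it, with 4.55, 3.89 and 4.18 FPKM for young controls, 0.67, 0.82 and 1.17 FPKM for aged controls and 25.63, 19.45 and 19.84 FPKM with the knockout label. These are therefore called the libraries labelled knockout throughout, and every direction drawn from that group rests on the label. Replicate 2 labelled knockout stood apart from the other libraries with that label in the class II genes, so results that rest on it are given with and without it. Because those genes singled it out, counts without it, in any list, only describe how much rests on it. Endothelial markers were high everywhere, with Cdh5, which encodes VE-cadherin, between 153.15 and 176.54 FPKM. The leukocyte gene Ptprc lay between 0.03 and 0.13 FPKM. It was the only 1 of 6 pan-leukocyte genes below 1 FPKM in every library, with Lcp1 at 18.41 to 24.30 and Coro1a at 1.17 to 4.31 FPKM. In bulk RNA, fewer cells of a type and less RNA per cell cannot be told apart.

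The promoters of H2-Aa and H2-Eb1 are shown because these genes had similar patterns across the libraries and because class II box letters can be read in them. RefSeq windows on GRCm38.p6, from 250 bases before to 50 after the start, were matched for 4 of the 7 genes, H2-Aa, H2-Eb1, H2-DMb1 and H2-DMa, the last with windows for 2 starts. H2-Ab1, Cd74 and Ciita had no entry. The stretches below run from 150 to 21 bases before the start, 5′ to 3′ on the strand of the gene. Capitals mark the Y box with its flank, TGATTGG, and in H2-Eb1 also the 3′ part of the X box, ACTGATG.
H2-Aa, chr17:34287844-34287973, minus strand: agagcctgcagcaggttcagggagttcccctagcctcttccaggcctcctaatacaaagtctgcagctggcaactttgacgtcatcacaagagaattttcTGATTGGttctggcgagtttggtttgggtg
H2-Eb1, chr17:34305717-34305846, plus strand: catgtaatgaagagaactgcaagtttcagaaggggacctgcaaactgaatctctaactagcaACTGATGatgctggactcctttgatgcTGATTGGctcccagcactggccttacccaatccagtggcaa

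Both strands of each window were searched for ACNGNTG followed by ATTGG on the same strand after 8 to 30 bases. The pair was found in H2-Eb1, with ACTGATG 88 bases before the start and a gap of 22 bases to ATTGG, and in H2-DMb1, with ACTGATG 91 bases before the start and a gap of 23 bases. It was not found in the windows of H2-Aa or H2-DMa. Of 32851 RefSeq promoter windows of this length, 244 (0.743%) held the pair. TGATTGG alone, which contains ATTGG and was chosen after the promoters were seen, was present in the windows of H2-Aa, H2-Eb1 and H2-DMb1 and in 2568 (7.82%) of all windows. A match describes letters in the window, and no match says only that these letters are not in it.

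The 3 class II chains were higher in every aged control than in every young control, with mean ratios of 1.97 to 3.08, and in every aged control than in every library labelled knockout, whose own values spread widely. Of these differences 1 passed the test, that of H2-Eb1 between labelled knockout and aged controls. H2-Aa (ENSMUSG00000036594, GRCm38 chromosome 17, 34282744 to 34287823, minus strand) encodes the alpha chain of the I-A molecule. Its values were 8.82, 8.03 and 13.02 FPKM for young controls, 20.61, 21.03 and 30.30 for aged controls, and 4.11, 16.27 and 5.09 with the knockout label. The aged controls lay above all other libraries, and labelled replicate 2 lay between the young and the aged controls while the other two lay below both. Group means came to 9.96 ± 2.68, 24.0 ± 5.48 and 8.49 ± 6.76 FPKM (SD, n = 3 each). The log2 fold change on the FPKM + 1 scale, used for all fold changes here, was 1.19 ± 0.395 (SE) for aged against young controls, with a limma adjusted p of 0.0975. It was -1.60 for labelled knockout against aged controls, with a limma adjusted p of 0.0502, just outside the threshold of 0.05, and -0.40 against young controls (limma adjusted p = 0.793).

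H2-Ab1 (ENSMUSG00000073421, chromosome 17, 34257689 to 34269419, plus strand) encodes the beta chain that pairs with H2-Aa. It was measured at 17.71, 11.20 and 16.73 FPKM for young controls, at 34.35, 36.73 and 69.57 for aged controls and at 8.96, 33.63 and 8.72 with the knockout label. Aged replicate 3 was well above the other aged controls, and labelled replicate 2 was just below them. Group means came to 15.2 ± 3.51, 46.9 ± 19.7 and 17.1 ± 14.3 FPKM (SD, n = 3 each), so the aged mean was 3.08 times the young one. The log2 fold changes were 1.51 ± 0.460 (SE, limma adjusted p = 0.0813) for aged against young and -1.60 (limma adjusted p = 0.0776) for labelled knockout against aged, neither of which passed the threshold.

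H2-Eb1 (ENSMUSG00000060586, chromosome 17, 34305867 to 34316674, plus strand) encodes the beta chain of the I-E molecule. It stood at 9.27, 8.50 and 11.60 FPKM for young controls, 19.13, 14.85 and 23.77 for aged controls and 3.95, 12 and 2.98 with the knockout label. No labelled knockout library reached the lowest aged control. Group means came to 9.79 ± 1.61, 19.3 ± 4.46 and 6.31 ± 4.95 FPKM (SD, n = 3 each). H2-Eb1 was lower in labelled knockout libraries than in aged control libraries by a log2 fold change of -1.65 ± 0.372 (SE, limma adjusted p = 0.0375), the only one of the class II genes to pass. This call rested on the setting: leaving out 1 library at a time ended it in 8 of 9 cases, and it was kept only without labelled knockout replicate 2. The difference between young and aged was not called (log2 fold change 0.89, limma adjusted p = 0.156). H2-Ea, whose product is the alpha chain of I-E, was listed at 0 in all 9 libraries.

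**Figure D1:**
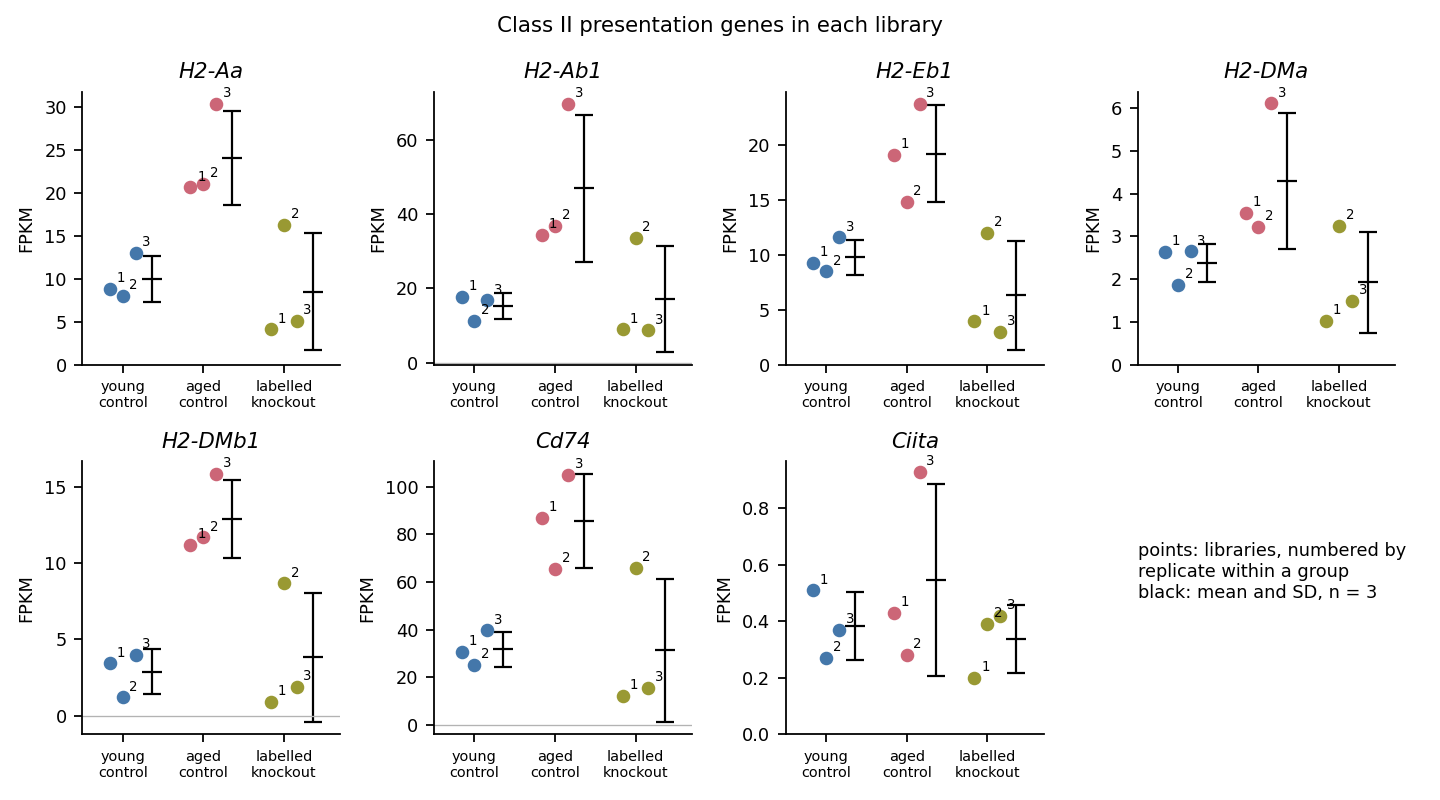
FPKM of the 7 class II presentation genes on linear axes, 1 panel per gene, with 1 numbered point per library and the mean ± SD of each group of 3 in black. In the 6 genes other than Ciita all aged controls lie above all young controls, and labelled knockout replicate 2 lies well above replicates 1 and 3; in Ciita the 3 groups overlap.

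Cd74 was the most abundant of the 7. It encodes the invariant chain, the class II chaperone, and lies outside the MHC (ENSMUSG00000024610, chromosome 18, 60803848 to 60812652, plus strand). Its values were 30.54, 25.06 and 39.67 FPKM for young controls, 86.84, 65.51 and 104.89 for aged controls and 12.25, 65.84 and 15.65 with the knockout label. Labelled replicate 2 reached the level of aged replicate 2, and the other two labelled libraries were below every young control. Group means came to 31.8 ± 7.38, 85.7 ± 19.7 and 31.3 ± 30.01 FPKM (SD, n = 3 each). Aged over young gave a log2 fold change of 1.40 ± 0.502 (SE, limma adjusted p = 0.115), and labelled knockout over aged gave -1.80 (limma adjusted p = 0.0720).

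The chains of H2-DM, the exchange factor, were the least abundant of the tested genes and differed from each other in the size of their ratios. H2-DMb1 (ENSMUSG00000079547, chromosome 17, 34153072 to 34160230, plus strand) encodes the beta chain. It was at 3.44, 1.21 and 3.98 FPKM for young controls, 11.21, 11.69 and 15.86 for aged controls and 0.91, 8.68 and 1.90 with the knockout label. The aged mean of 12.9 ± 2.56 FPKM was 4.49 times the young mean of 2.88 ± 1.47 FPKM (SD, n = 3 each), the largest ratio among the 7 genes in that comparison, and the mean under the knockout label was 3.83 ± 4.23 FPKM (SD, n = 3). Its log2 fold changes were 1.91 ± 0.521 (SE, limma adjusted p = 0.0677) for aged against young and -1.87 (limma adjusted p = 0.0719) for labelled knockout against aged. H2-DMa (ENSMUSG00000037649, chromosome 17, 34119541 to 34139101, plus strand) encodes the alpha chain. It was at 2.64, 1.87 and 2.65 FPKM for young controls, 3.55, 3.22 and 6.12 for aged controls and 1.02, 3.25 and 1.5 with the knockout label. Here the labelled replicate 2 overlapped the aged controls, and the means were 2.39 ± 0.448, 4.30 ± 1.59 and 1.92 ± 1.17 FPKM (SD, n = 3 per group). The log2 fold changes were 0.61 ± 0.281 (SE, limma adjusted p = 0.191) and -0.89 (limma adjusted p = 0.0966).

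Values of the H2-DM chains carry a further uncertainty. H2-DMb1 and H2-DMb2 are closely similar genes, and how reads that match both were counted is not given in the sources used here. H2-DMb2 was between 0.05 and 0.56 FPKM. The model of H2-DMa overlaps 3094 bases of Brd2, a gene on the other strand at 46.98 to 91.88 FPKM, and without a strand setting reads of the shared stretch cannot be told apart. Brd2 was higher with the knockout label than in the aged group (log2 fold change 0.65, limma adjusted p = 0.0206), opposite in sign to H2-DMa, which was not called.

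Ciita (ENSMUSG00000022504, chromosome 16, 10480059 to 10528418, plus strand) was the lowest of the 7. It was at 0.51, 0.27 and 0.37 FPKM for young controls, 0.43, 0.28 and 0.93 for aged controls and 0.20, 0.39 and 0.42 with the knockout label. The groups overlapped in each comparison, and only aged replicate 3, which was also the highest library in the other 6 genes, stood out. These values correspond to about 53 to 218 fragments per library, so counting error alone reached 13.7% in the lowest. Group means came to 0.383 ± 0.121, 0.547 ± 0.340 and 0.337 ± 0.119 FPKM (SD, n = 3 each). By exact permutation, two-sided, p was 0.6 for aged against young, 0.4 for labelled knockout against aged and 0.7 for labelled knockout against young. Ciita also overlaps 25888 bases of Dexi, a gene on the other strand at 5.74 to 8.52 FPKM.

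Read together in the comparison of aged with young controls, all 6 tested genes had no overlap between groups, with every aged control higher. Of all 11796 genes tested, 13.9% showed such separation upwards and 21.8% downwards. None of the 6 passed the threshold in the limma fit, where 3.99% of all genes were called, 1.20% of all genes as higher and 2.80% as lower. At an unadjusted p under 0.05 there were 5 of 6 higher, beside 10.2% of all genes. The voom method, a limma fit to estimated fragments, called 1 as higher, H2-DMb1 at an adjusted p of 0.0486, beside 1.30% of all genes. The median log2 fold change of the 6 was 1.30, beside -0.045 for all genes tested. By exact permutation, two-sided, p was 0.1 for each of the 6, which is the smallest value that 3 against 3 libraries allow. With replicate 2 labelled knockout out of the fit, which narrows the common estimate of the spread and leaves these fold changes as they were, 5 of 6 were called as higher, at adjusted p of 0.0109 for Cd74, 0.0136 for H2-DMb1, 0.0151 for H2-Aa, 0.0180 for H2-Ab1 and 0.0257 for H2-Eb1. H2-DMa stayed at 0.0992. In that fit 3.1% of all genes were called as higher. The library left out was singled out for its high values in these same genes. These calls therefore describe how much rests on it and are no separate support for a difference with age. A fit of the young and aged controls alone also called 5 of 6 as higher, beside 2.19% of all genes.

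Between the libraries labelled knockout and the aged controls, 1 of 6 was called as lower, beside 2.01% of all genes called as lower, 2.78% as higher and 4.79% in all. In 4 of 6, H2-Aa, H2-Ab1, H2-Eb1 and H2-DMb1, all labelled libraries were below all aged controls, beside 11.1% of all genes, and 12.1% of all genes were separated upwards. In H2-DMa and Cd74 labelled replicate 2 was above the lowest aged control, by 3.25 against 3.22 and by 65.84 against 65.51 FPKM. Exact permutation, two-sided, gave 0.1 for these 4 genes and 0.2 for H2-DMa and Cd74. All 6 were lower at an unadjusted limma p under 0.05, beside 11.3% of all genes, and their median log2 fold change was -1.63 beside 0.0025 for all genes. Without labelled replicate 2 all 6 were called as lower, beside 4.77% of all genes. That library was singled out for its high values in these same genes, so this count is a description of how much rests on it, and leaving out any of the other 8 libraries gave 0 calls among the 6. In that fit the log2 fold changes were -2.55 for H2-DMb1, -2.52 for Cd74, -2.21 for H2-Ab1, -2.17 for H2-Eb1, -2.14 for H2-Aa and -1.20 for H2-DMa, with limma adjusted p from 0.00093 for Cd74 to 0.0194 for H2-DMa. A fit of the aged and labelled knockout groups alone called none of the 6, and voom called 5 of them as lower, all but H2-DMa, beside 2.23% of all genes. This comparison and the previous one share the aged controls, so a high aged value enters both.

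The libraries labelled knockout and the young controls differ in age as well as in label, and no class II gene separated them. None of the 6 was called, beside 0.212% of all genes (0.0848% higher and 0.127% lower), none had an unadjusted p under 0.05 in limma or was called by voom, and in each gene the groups overlapped, while 8.46% of all genes were separated upwards and 14% downwards. Log2 fold changes ran from -0.75 for H2-Eb1 (limma adjusted p = 0.571) to 0.04 for H2-DMb1 (limma adjusted p = 0.988), with a median of -0.335. Without labelled replicate 2 the change of H2-Eb1 was -1.27 (limma adjusted p = 0.0693) and that of Cd74 was -1.12 (limma adjusted p = 0.185), and again none was called.

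**Figure D2:**
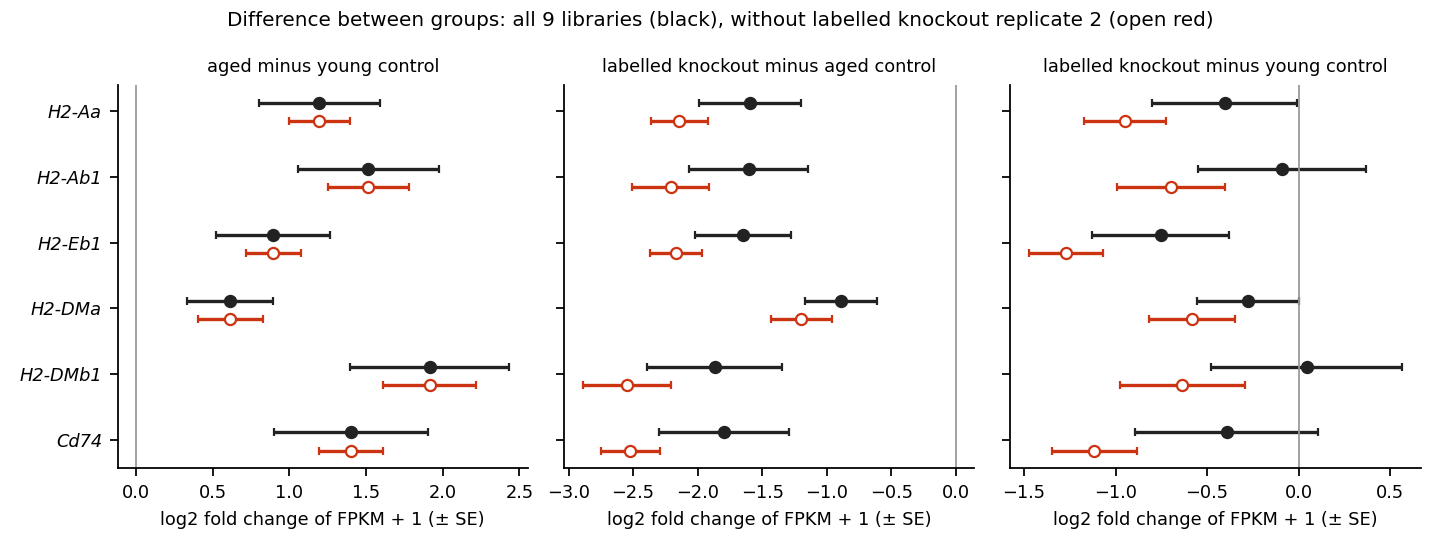
Log2 fold change of FPKM + 1 with its standard error for the 6 tested class II genes in the 3 comparisons, from the fit of all 9 libraries (filled black) and from the fit without labelled knockout replicate 2 (open red). Leaving out that library keeps the aged minus young estimates where they were with shorter bars and moves the other estimates to lower values.

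The spread between libraries was shared by the class II genes. On the mean log2 scale of H2-Aa, H2-Ab1, H2-Eb1 and Cd74, the libraries corresponded to geometric means of 14.6, 11.9 and 17.9 for young controls, 33.1, 29.6 and 48.1 for aged controls and 6.60, 25.9 and 6.91 with the knockout label, in FPKM after removal of the added 1. The coefficient of variation was 16.5% to 51.1% among young controls for the 6 tested genes, 19.8% to 42.0% among aged controls and 61.0% to 110.4% among the libraries labelled knockout. The counting error of a single value was at most 15.3%. Aged replicate 3 was the highest library in all 7 genes. In the 6 tested genes labelled replicate 2 ranked 6th or 7th of 9, above all young controls, and labelled replicates 1 and 3 were among the 3 lowest.

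Ratios of levels per length varied less between libraries than the levels themselves for the I-A chains and Cd74. Cd74 was 2.98 to 4.21 times H2-Aa over the 9 libraries, a 1.41-fold range, although H2-Aa itself varied 7.37-fold and Cd74 8.56-fold. The ratio of H2-Ab1 to H2-Aa ran from 1.29 to 2.30, and that of Cd74 to H2-Ab1 from 1.37 to 2.53. H2-Ab1 to H2-Eb1 ran from 1.32 to 2.93, with means of 1.56 ± 0.313 for young controls, 2.40 ± 0.569 for aged controls and 2.67 ± 0.350 with the knockout label (SD, n = 3 each). The H2-DM chains were less proportional: the ratio of H2-DMb1 to H2-DMa was 1.15 ± 0.447 for young controls, 3.13 ± 0.520 for aged controls and 1.61 ± 0.938 with the knockout label, and spanned 5.61-fold. The ratio of Cd74 to Ciita spanned 6.28-fold, from 37.3 to 234, and Ciita itself varied 4.65-fold. As a description over the 9 libraries, which differ in depth and fall into groups, log2 values of the 6 tested genes had pairwise Pearson r of 0.871 to 0.989. Ciita had r of 0.535 to 0.775 with these genes. After subtraction of group means these ranges were 0.851 to 0.977 and 0.362 to 0.749.

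**Figure D3:**
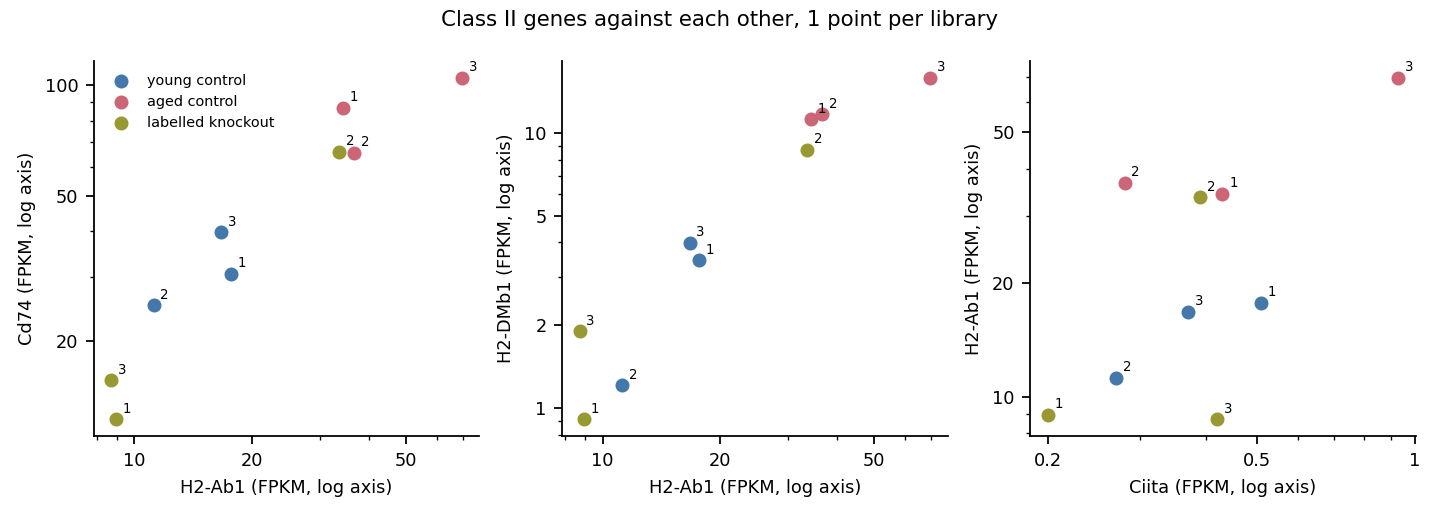
Cd74 and H2-DMb1 against H2-Ab1, and H2-Ab1 against Ciita, in FPKM on log axes with 1 numbered point per library. In the first 2 panels labelled knockout replicate 2 lies next to the aged controls and replicates 1 and 3 at the lower left; in the third panel labelled knockout replicate 3 and aged control replicate 1, at 0.42 and 0.43 FPKM of Ciita, lie at 8.72 and 34.35 FPKM of H2-Ab1.

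The other class II loci of the same region were hardly detected. Beside H2-Ea at 0 in every library, H2-Eb2, a beta chain gene, was at 0.06, 0.04 and 0.04 FPKM for young controls and listed at 0 in the other 6 libraries. H2-Oa and H2-Ob, whose products form the H2-DM inhibitor H2-O, were at 0 to 0.65 and 0.08 to 0.35 FPKM. The highest H2-Oa values were 0.65 in labelled replicate 2 and 0.43 in aged replicate 2. Between H2-DMa and H2-Eb1, from 34119541 to 34316674 on chromosome 17, the table holds 16 genes, of which 5 are class II genes described above and 5 others were tested, namely Brd2, Psmb9, Tap1, Psmb8 and Tap2. The median log2 fold change of these 5 neighbours was 0.50 for aged against young and -0.12 for labelled knockout against aged. Brd2 was the only one called in any comparison, as higher in labelled knockout against aged, beside 2.78% of all genes. Tap1, a subunit of the class I peptide transporter, had means of 18.8, 18.4 and 20.4 FPKM in the young, aged and labelled knockout groups. Psmb8 and Psmb9 were higher in every aged than in every young control, with mean ratios of 1.59 and 1.47. Brd2 was lower in every aged control. Of all genes, 13.9% were separated upwards and 21.8% downwards in that comparison. Tap2 had a mean ratio of 1.45 with overlap.

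Most genes that act on class II transcription were not called, and Irf1, which was called in both comparisons with the aged controls, was lowest in the aged controls, where the class II genes were highest. Of 21 measured genes for X and Y box binding proteins, coactivators and interferon gamma signalling, 20 were tested. None rose and 1 fell from young to aged, beside 1.20% and 2.80% of all genes, with a list median of -0.20. At an unadjusted p under 0.05 there were 9 lower, beside 17.45% of all genes, and voom called 2 lower, beside 3.74%. Between labelled knockout and aged controls 2 were called as higher, beside 2.78% of all genes, and none as lower, with a median of 0.16. At an unadjusted p under 0.05, 4 were higher in that comparison, beside 12.7% of all genes. Against the young controls none was called by limma or voom, with 3 higher at an unadjusted p under 0.05, beside 3.00% of all genes. Irf1, the transcription factor that acts on the interferon-inducible promoter of Ciita, was at 229.28, 177.31 and 188.22 FPKM for young controls, 101.49, 88.10 and 91.66 for aged controls and 344.43, 299.08 and 279.92 with the knockout label. The 3 groups did not overlap. Irf1 was lower in aged than in young controls, by a log2 fold change of -1.07 ± 0.122 (SE) at a limma adjusted p of 0.00684, and higher in labelled knockout than in aged controls, by 1.70 ± 0.122 (SE) at 0.000148. Socs1, a feedback inhibitor of the same pathway, was higher in labelled knockout than in aged controls (1.13 ± 0.144 SE, limma adjusted p = 0.00438).

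Rfx5, an X box binding subunit, was between 1.29 and 2.45 FPKM, with no call in any comparison. Within groups Irf1 had an r of -0.084 with the mean of the class II genes, beside -0.788 over all 9 libraries. Labelled replicate 2, high in class II genes, lay between the other labelled libraries in Irf1. Without labelled replicate 2 the list held 3 lower calls for aged against young, beside 5.71% of all genes. For labelled knockout against aged it then held 2 higher calls, beside 5.05%.

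Several genes of the compartment where class II molecules are loaded rose with age and were lower in labelled knockout libraries than in aged control libraries. In the list of proteases, lysosomal membrane proteins and carriers, 20 genes were measured and 19 tested. From young to aged 5 rose and none fell, with a median of 0.37, beside 1.20% of all genes called as higher. Ctsd, an aspartic protease, was at 180.20, 200.28 and 194.86 FPKM for young controls, 336.78, 338.32 and 317.94 for aged controls and 178.39, 246.23 and 202.35 with the knockout label. Its log2 fold change was 0.79 ± 0.118 (SE, limma adjusted p = 0.0168) with age and -0.67 (limma adjusted p = 0.0143) in labelled knockout against aged. The proteases Ctsh (0.76), Ctsz (0.58) and Ctsb (0.58) and the tetraspanin Cd63 (0.82) also rose with age. Labelled knockout against aged gave 5 lower, beside 2.01% of all genes, and none higher, with a median of -0.28: Ctsd, Ctsh (-0.84), the protease inhibitor Cst3 (-0.74), Cd63 (-0.74) and Ctsz (-0.49). Against the young controls none was called by limma or voom, and none had an unadjusted p under 0.05.

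Ctss, Ctsl and Ifi30 were not called in any comparison. Ctss, which makes the last cut in the invariant chain in many antigen-presenting cells, was at 3.48, 2.61 and 6.69 FPKM for young controls, 10.50, 9.64 and 7.94 for aged controls and 0.55, 9.83 and 2.33 with the knockout label. Its pattern over libraries resembled that of the class II genes (r = 0.901 with their mean, n = 9), and neither difference passed the test (limma adjusted p = 0.26 and 0.166). Ctsl, another invariant chain protease, was far more abundant, at 618.02 to 1038.92 FPKM, and was not called (limma adjusted p = 0.0527 for aged against young). Ifi30, a thiol reductase of the same compartment, was at 1.13 to 2.94 FPKM with no call. Without labelled replicate 2 the list gave 9 higher and 1 lower from young to aged, beside 3.1% and 5.71% of all genes. For labelled knockout against aged it then gave 11 lower, beside 4.77%. The library was left out for its class II values, so these counts only describe how much rests on it.

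Costimulatory genes were mostly at low level. Of 15 measured, 8 stayed below 1 FPKM in every library, among them Cd86, at 0.06 to 0.78 FPKM, and Cd80, at no more than 0.28 FPKM; both encode ligands of CD28 on T cells. Cd40 was at 1.60 to 4.21 FPKM and was not called. Of the 7 tested, Icam1, an adhesion ligand for leukocytes, was called. It was higher in labelled knockout than in aged controls by a log2 fold change of 0.83 ± 0.120 (SE) at a limma adjusted p of 0.00666. That made 1 of 7, beside 2.78% of all genes called as higher. Limma and voom made no calls in the other comparisons. At an unadjusted p under 0.05, 1 was higher and 3 were lower from young to aged, beside 10.2% and 17.45% of all genes. In labelled knockout 4 were higher against aged and 2 against young controls, beside 12.7% and 3.00%.

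Class I presentation genes had smaller differences. All 19 were tested and none was called in any comparison in the fit of all libraries. At an unadjusted p under 0.05, limma had 11 higher and 1 lower from young to aged, beside 10.2% and 17.45% of all genes. For labelled knockout against aged it had 1 higher and 6 lower, beside 12.7% and 11.3%. Against the young controls it had 1 higher, beside 3.00%, and voom called none. The medians were 0.41 for aged against young and -0.30 for labelled knockout against aged. H2-K1, a class I heavy chain, was at 694.84, 564.55 and 685.54 FPKM for young controls, 835.36, 787.01 and 915.27 for aged controls and 589.49, 867.58 and 606.49 with the knockout label, so replicate 2 was again the highest of its group. B2m, the class I light chain, ran from 4190.68 to 8349.48 FPKM, and Nlrc5, the class I transactivator, from 1.86 to 4.37 FPKM. Over the 9 libraries r with the mean of the class II genes was 0.923 for H2-K1 and 0.948 for the class I gene H2-D1. It was 0.526 for B2m and 0.558 for Nlrc5. Without labelled replicate 2, 2 class I genes were called as higher from young to aged, beside 3.1% of all genes. In labelled knockout against aged 6 were then called as lower, beside 4.77%. Replicate 2 was also high in H2-K1, so these counts only describe how much rests on that library.

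The genes whose pattern over the 9 libraries was most like the mean log2 value of H2-Aa, H2-Ab1, H2-Eb1 and Cd74 were ranked among 6939 genes averaging 5 FPKM or more. The 10 highest were Gm10146, Ldhb, Hmg20b, Rnf167, Pkp2, Sectm1a, Mansc1, Tmem106c, Paxx and H2-DMb1, with Pearson r from 0.975 to 0.956. These are the highest of 6939 values over 9 points each and carry no test. H2-DMb1 was the only class II gene that could be listed, since 4 define the mean and H2-DMa (r = 0.964) and Ciita (r = 0.594) averaged under 5 FPKM. Ldhb, a lactate dehydrogenase chain, was at 22.86, 26.63 and 26.24 FPKM for young controls, 45.42, 35.99 and 54.77 for aged controls and 15.07, 35.51 and 18.08 with the knockout label. Pkp2, a junctional plaque protein, was at 7.57 to 8.63, 11.09 to 13.05 and 4.31, 9.61 and 3.62 FPKM. Sectm1a was at 22.28 to 24.60, 41.30 to 44.30 and 16.98, 31.60 and 16.90 FPKM and fell in labelled knockout against aged (log2 fold change -0.99, limma adjusted p = 0.0258). Hmg20b and Rnf167 varied over a much narrower range, 15.5 to 21 and 60.34 to 74.63 FPKM. In Rnf167 labelled replicate 2, at 72.61 FPKM, lay above aged replicates 1 and 2, at 71.54 and 70.99.

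Marker genes of cells that carry class II molecules elsewhere were compared with this pattern library by library. Among monocyte and macrophage markers, 7 of 14 stayed below 1 FPKM in all libraries, and the summed level of the list was 74.5 to 136.2 FPKM for young controls, 99.8 to 121.3 for aged controls and 69.8 to 95.0 with the knockout label. The C1q complement genes, which macrophages make, had patterns across libraries that resembled those of the class II genes. C1qa was at 3.24, 3.32 and 6 FPKM for young controls, 5.12, 6.13 and 8.45 for aged controls and 1.96, 6.96 and 2.61 with the knockout label, with r = 0.926 with the class II mean over 9 libraries. C1qc was at 2.67 to 6.44, 4.68 to 9.69 and 1.09 to 4.09 FPKM (r = 0.908). C1qb and Lyz2 had r of 0.848 and 0.743. Cd68 and Cd14, the other tested markers, differed in sign from the C1q genes between young and aged, with log2 fold changes of -0.21 and -0.11. Csf1r, the receptor that defines the lineage, was at 0.50 to 2.07 FPKM with r = 0.406, and Itgam was at no more than 0.34 FPKM. None of the 6 tested monocyte and macrophage genes was called by limma or voom in the fit of all libraries. In labelled knockout against aged 2 were lower at an unadjusted p under 0.05, beside 11.3% of all genes. Without labelled replicate 2, 3 were called as lower in that comparison, beside 4.77%. This count describes how much rests on that library, which was the highest of its group in C1qa. The part of these cells in the class II values was not tested.

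Immunoglobulin transcripts varied far more widely. The summed B lineage and plasma cell list was 16.7, 9.50 and 521.3 FPKM for young controls, 3030, 1589 and 483.8 for aged controls and 7.63, 1793 and 536.9 with the knockout label. Igkc, Ighm and Jchain made up 98.0% to 99.4% of it in the 6 libraries with high sums and 59.6%, 34.3% and 24.0% in young replicates 1 and 2 and labelled replicate 1. Aged replicate 3, the highest library in every class II gene, had the lowest sum among the aged controls, and labelled replicate 3, low in class II genes, had a sum above it. Without the immunoglobulin and J chain genes the list summed to 6.24 to 6.99, 6.02 to 10.3 and 5.80 to 6.95 FPKM in the 3 groups. Cd79a, a defining B cell gene, was at 1.34 to 2.48 FPKM with r = 0.025 with the class II mean, beside 0.635 for Igkc and 0.583 for Jchain, and 7 of the 17 genes stayed below 0.2 FPKM in every library. None of the 7 tested B lineage genes was called by limma in the fit of all libraries. Voom called 1 as lower from young to aged, beside 3.74% of all genes, and none in the other comparisons. At an unadjusted p under 0.05 there were 5 higher and 1 lower from young to aged, beside 10.2% and 17.45% of all genes. For labelled knockout against aged there were 1 higher and 2 lower, beside 12.7% and 11.3%. Without labelled replicate 2 there were 2 higher and 1 lower calls in the first comparison, beside 3.1% and 5.71% of all genes. In the next there were 1 higher and 2 lower, beside 5.05% and 4.77%. Such counts describe how much rests on the library left out. Their part in the class II values was not tested.

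Dendritic cell genes gave a summed level of 143.9 to 173.1, 199.1 to 248.4 and 182.0 to 223.3 FPKM, nearly all from Bst2 and Zbtb46. Of 4 tested, 1 rose with age, Bst2 (log2 fold change 0.62, limma adjusted p = 0.0401), beside 1.20% of all genes. The defining dendritic cell members Flt3, Itgax and Xcr1 were at or near 0, with highest values of 0.08, 0.08 and 0.12 FPKM, and 8 of the 13 stayed below 1 FPKM everywhere. The pan-leukocyte list summed to 29.6 to 38.2, 29.8 to 38.6 and 29.7 to 33.7 FPKM in the 3 groups, most of it Lcp1. Of its 5 tested genes 1, Cd52, a surface glycoprotein of leukocytes, rose with age (log2 fold change 1.09, limma adjusted p = 0.0435), beside 1.20% of all genes. Cd52 was at 0.77, 0.48 and 1.2 FPKM for young controls, 2.47, 3.79 and 2.36 for aged controls and 0.87, 2.22 and 1.02 with the knockout label, with labelled replicate 2 again the highest of its group. Cd52 and Laptm5, 2 of the 5, were lower in every labelled library than in every aged control, beside 11.1% of all genes, and neither was called. The part of these cells in the class II values was not tested. Among the sinusoidal endothelial markers, Fcgr2b, the inhibitory Fc receptor of sinusoids, resembled the class II genes over the libraries (r = 0.925 with their mean, n = 9), although aged replicate 3 was the lowest aged control. It was at 99.92, 124.11 and 126.08 FPKM for young controls, 316.01, 362.27 and 233.65 for aged controls and 41.97, 180.85 and 47.76 with the knockout label, and it fell in labelled knockout against aged (log2 fold change -2.05, limma adjusted p = 0.0352). In Fcgr2b every aged control was above every young control, a difference that limma did not call. Of the 11 tested sinusoidal genes limma called 2 as lower in labelled knockout against aged, beside 2.01% of all genes, and none in the other comparisons. Voom called 2 as higher and none as lower with age, beside 1.30% and 3.74%. At an unadjusted limma p under 0.05, 5 were higher and 2 lower with age, beside 10.2% and 17.45%. Without labelled replicate 2, limma called 4 as higher and 1 as lower with age, beside 3.1% and 5.71%. The median of the 11 was 0.05 for aged against young in the fit of all libraries, with 5 separated upwards and 3 downwards, beside 13.9% and 21.8% of all genes. Of 12 tested pan-endothelial genes 1 rose and 1 fell with age, beside 1.20% and 2.80% of all genes. In labelled knockout against aged 1 fell, beside 2.01%. The whole sinusoidal list summed to 2645 to 2752, 2816 to 3326 and 2527 to 2868 FPKM, and the pan-endothelial list to 2522 to 2579, 2786 to 2909 and 2518 to 2654 FPKM. In the lists for other cells and vessels, limma called none of 8 tested neutrophil and 5 tested erythroid and megakaryocyte genes, as did voom. At an unadjusted p under 0.05, 1 neutrophil gene was higher with age and 1 lower in labelled knockout against aged, beside 10.2% and 11.3% of all genes. The neutrophil list summed to 68.25, 6.37 and 140 FPKM for young and 12.92, 90.67 and 285.8 for aged controls. With the knockout label it summed to 32.96, 107.6 and 116.4 FPKM. The erythroid and megakaryocyte list summed to 114.4 to 120.7, 68.65 to 189.1 and 54.66 to 177.2 FPKM in the 3 groups. The T and NK cell list had no tested gene. The stromal, osteoblast and fat cell list, with 5 tested, held 3 lower calls from young to aged (Adipoq, Ibsp and Kitl), beside 2.80% of all genes. It held 1 lower call, Adipoq, in labelled knockout against aged and against young controls, beside 2.01% and 0.127%. The arterial list, with 11 tested, held 1 lower call, Cxcl12, in each comparison with the young controls. All genes had 2.80% called as lower for aged and 0.127% for labelled knockout.

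**Figure D4:**
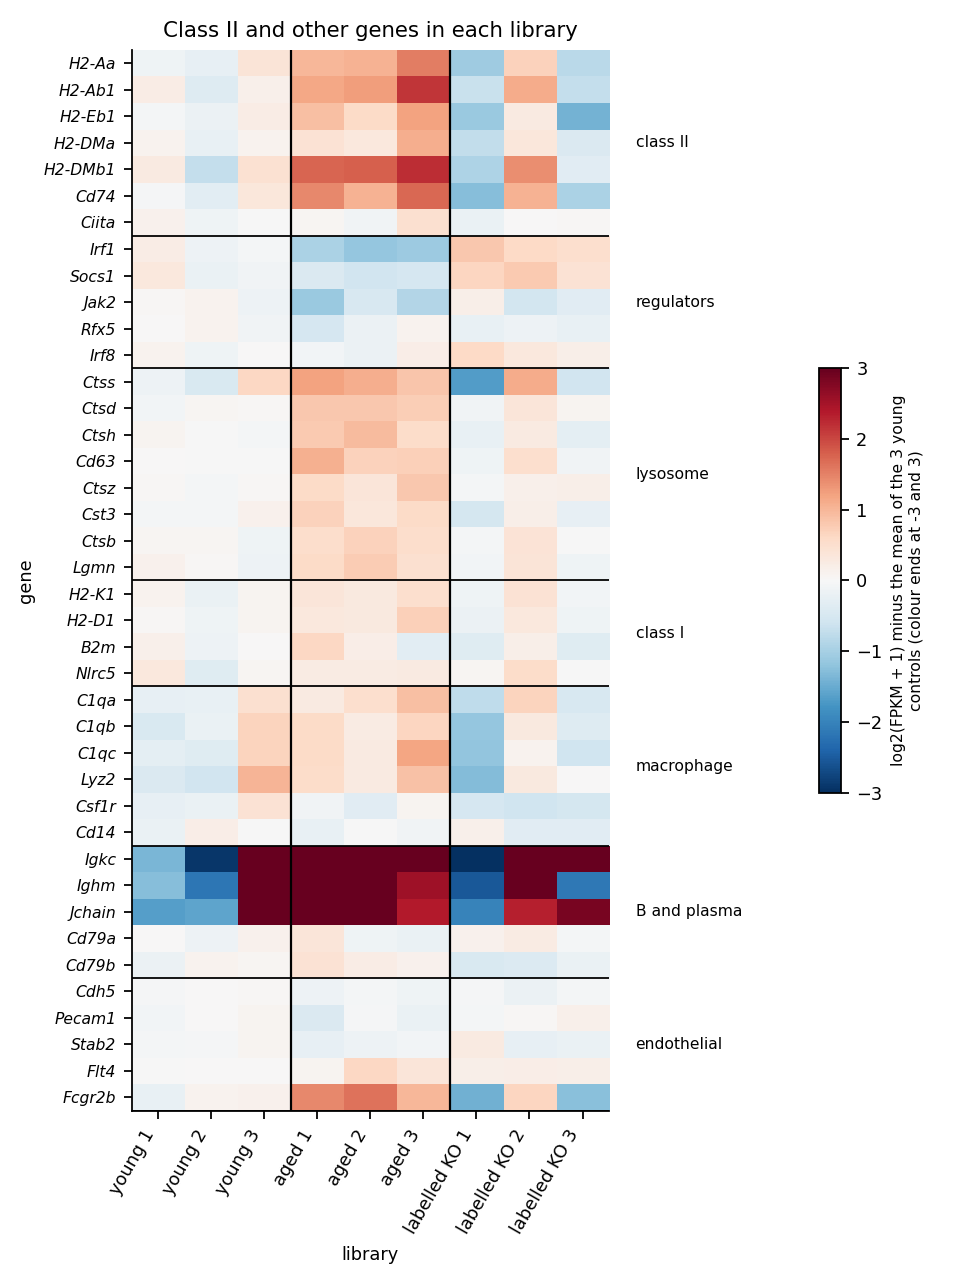
Log2(FPKM + 1) of the class II genes and of genes from the other lists in each library, minus the mean of the 3 young controls; the colour ends at -3 and 3. Labelled knockout replicate 2 shares the sign of the aged controls in the rows of the 6 tested class II genes, the lysosomal genes, C1q and Fcgr2b but not in Irf1 and Socs1, and the immunoglobulin rows reach both ends of the colour scale.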

How the data were processed

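The authors deposited 1 table of FPKM values, fragments scaled by gene length and library depth, with 2 decimals for 52183 genes in 9 libraries. Per the labels' protocols, sorted cells went into TRIzol-LS and 2 ng of total RNA per library was amplified with a low-input full-length cDNA kit. The tools named in the submitters' processing notes are STAR, edgeR and FastQC 0.11.5, and the builds are GRCm38 and mm10. The sources used here do not give the counting rules, the strand setting or the handling of multiply mapped reads. All 52183 identifiers matched GENCODE M21 (GRCm38), the source of coordinates and exon lengths. Groups and replicate numbers come from the sample titles.

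The members and lists were chosen with earlier results of these data known. log2(FPKM + 1) was fitted in limma 3.58.1 (R 4.3.3) over all 9 libraries with group means, 6 residual degrees of freedom and a trended prior. The 11796 genes that averaged 1 FPKM or more were tested, with Benjamini-Hochberg adjustment over all of them and a threshold of 0.05. Single values used two-sided exact permutation tests (Python 3.11.15, scipy 1.17.1). The fit was tested on simulated data. Depth, 22160000 to 30410000 fragments, came from genes of 60 to 400 bases, whose low values were whole multiples of 1 fragment (99.5% to 99.8%, tolerance 0.1). The count edgeR test was not used, since the values are not counts. Named genes were the 7 members, Thbs1, the other class II loci, up to 6 called genes of each list by adjusted p with fixed key genes, and the 10 genes most like the members. Genes from marker lists, neighbouring and overlapping genes and Cd80, H2-K1, H2-D1, Tap1 and Fcgr2b were chosen after their values were seen. Alternatives, given at the end, were pseudocounts, filters, scalings, fits of 2 groups, a replicate block, voom and each library left out. Some genes are not reported here.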

Additional observations from a re-analysis of the deposited data

How the results depend on the processing

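In every alternative fit that tested them the 6 tested class II genes were higher in aged than in young controls and lower in labelled knockout than in aged controls, and no call reversed. For aged against young no groups overlapped in these 6, so changing the pseudocount, filter, block or libraries could not change that sign. The same holds for 4 of 6 in labelled knockout against aged. The constant signs are therefore no separate support. Of 108 refitted values per comparison (including Ciita where no filter was used), 94 stayed on their side of the threshold for aged against young and 14 newly passed it. Ciita was not tested in the main fit. It is counted as staying only because its difference without a filter is the same value. For labelled knockout against aged 85 stayed, 12 newly passed and 11 no longer passed, and for labelled knockout against young all 108 stayed. From young to aged the number of class II genes called moved from 0 to 1 with a pseudocount of 5, a mean of at least 5 FPKM or voom, and to 5 in a fit of the 2 groups alone. It ranged from 0 to 5 when each library was left out, with 1 without labelled knockout replicate 1 and 5 without replicate 2. For labelled knockout against aged it moved from 1 to 2 with a pseudocount of 5, a mean of at least 5 FPKM or median-ratio scaling, to 5 with voom, and to 0 with no filter or with the 2 groups alone. It ranged from 0 to 6 when each library was left out, with 6 only without labelled knockout replicate 2. The causes were not tested.

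Over all genes, the 471 calls for aged against young (141 higher, 330 lower) became 39 without a filter and 716 with the 2 groups alone, and 5 to 1039 with a library left out. The split was 215 higher and 200 lower with median-ratio scaling and 160 and 199 with quantile normalization. The 565 calls for labelled knockout against aged became 146 without a filter (108 higher and 38 lower, against 328 and 237), 149 with the 2 groups alone (112 and 37) and 197 to 1159 with a library left out. The 25 calls for labelled knockout against young became 12 at a mean of at least 5 FPKM, 15 without a filter and 11 to 31 with a library left out. Same-numbered libraries of different groups had residual correlations from -0.13 to 0.124, and 2 of 9 correlated best with their own number, so the numbers were not taken to pair them. The replicate block gave 183 genes and 0 class II genes for aged against young, 400 and 0 for labelled knockout against aged, and 23 and 0 for labelled knockout against young. Counting depth limits Ciita and the H2-DM chains most.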
